A study of Oryza sativa with 6 samples.

Results

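The 9 cellulose synthase genes OsCesA1 to OsCesA9 and BC1 were followed in young rice panicles (Oryza sativa). They are 10 of the 46732 loci in the expression table and were picked by locus identifier under a rule that uses no expression value. By the grouping used to choose them, 6 serve the primary wall (OsCesA1, OsCesA2, OsCesA3, OsCesA5, OsCesA6 and OsCesA8), 3 serve the secondary wall (OsCesA4, OsCesA7 and OsCesA9), and BC1 stands by itself. RNA was sequenced from panicles of 8 to 10 cm, in 3 libraries of NIL-qigl1HD385 and 3 of NIL-qIGL1NIP. These near-isogenic lines are meant to be alike but for a chosen locus, here qIGL1, which affects grain length; the line names give its source as HD385 or NIP. Both lines carry the genotype label wild type. The labels give neither the segments that differ, nor the age of the plants, nor whether each library is a plant of its own. The p-values therefore speak of the spread between libraries, and part of that spread may be technical.

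Cellulose is spun into the wall by rosette-shaped complexes in the plasma membrane, each built from several different cellulose synthase (CesA) subunits. In plants, one set of subunits works in the thin primary wall of growing cells and another in the thick secondary wall laid down once growth ends, as in fibres and xylem vessels. In rice, loss of OsCesA4, OsCesA7 or OsCesA9 gives brittle culms with little cellulose in the secondary wall. BC1 (BRITTLE CULM1) encodes a COBRA-like protein of the cell surface, and its loss also makes culms brittle. No protein or promoter sequence of these genes was used here.

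The expression unit was RPKM, a read density corrected for gene length and library size, which allows levels of different genes to be set side by side. Library totals recovered from the RPKM values lay between 43536754 and 52466060 reads. All 10 genes passed the filter of a mean of at least 0.5 RPKM. Their recovered reads numbered 3266 to 163848 per gene and library, so counting error was 0.247 to 1.75% of a value, below the spread between libraries. The 10 genes took 0.857, 1.34 and 0.893% of the total in NIL-qigl1HD385 replicates 1, 2 and 3, and 0.718, 0.79 and 0.765% in NIL-qIGL1NIP. CesA genes are related in sequence, and how the authors assigned reads from near-identical stretches is not stated in the labels. NIL-qigl1HD385 replicate 2 and NIL-qIGL1NIP replicate 3 stood apart from the other libraries in what follows. Their totals were 48329989 and 43536754 reads, and their 10 most abundant loci took 4.77 and 3.45% of the reads, against 3.40 to 3.97% in the other 4 libraries; whether this plays a part in the results was not tested. In a panicle, more cells of a type and more RNA per cell cannot be told apart.

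None of the 10 genes passed the test of the line difference, while within lines the 3 secondary wall genes varied together, with 1 library at up to 2.53 times the mean of its line's other 2. OsCesA3 had the largest difference, with about double the level in NIL-qigl1HD385 and no overlap between the lines. The test was limma on log2(RPKM + 0.5) over 23181 loci, two-sided, with a Benjamini-Hochberg adjusted p under 0.05 as the threshold. It called 0 of 10 genes, beside 0.733% of all tested loci, and limma voom on the recovered reads also called 0 of 10. At an unadjusted p under 0.05, 1 of 10 passed (OsCesA3), beside 17.0% of all tested loci. The 3 values of one line lay beyond those of the other for 1 of 10 (again OsCesA3, higher in NIL-qigl1HD385), beside 26.5% of the tested loci in either direction and 16.2% in that direction. None of these shares exceeds its background. Of the 10 differences, 8 were positive, with a median of 0.31 on the log2 scale, beside a median of 0.02 over all tested loci, of which 52.9% were positive. All 10 genes had a mean above 20 RPKM. Over the 5459 tested loci with a mean of at least 20 RPKM, the median was -0.0165 and 2607 were positive. OsCesA4, OsCesA7, OsCesA9 and BC1 are among the 8 and varied together, so the 8 signs are not independent. Without NIL-qigl1HD385 replicate 2 and NIL-qIGL1NIP replicate 3, 6 of 10 were positive, and the median over all tested loci was 0.015.

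**Figure D1:**
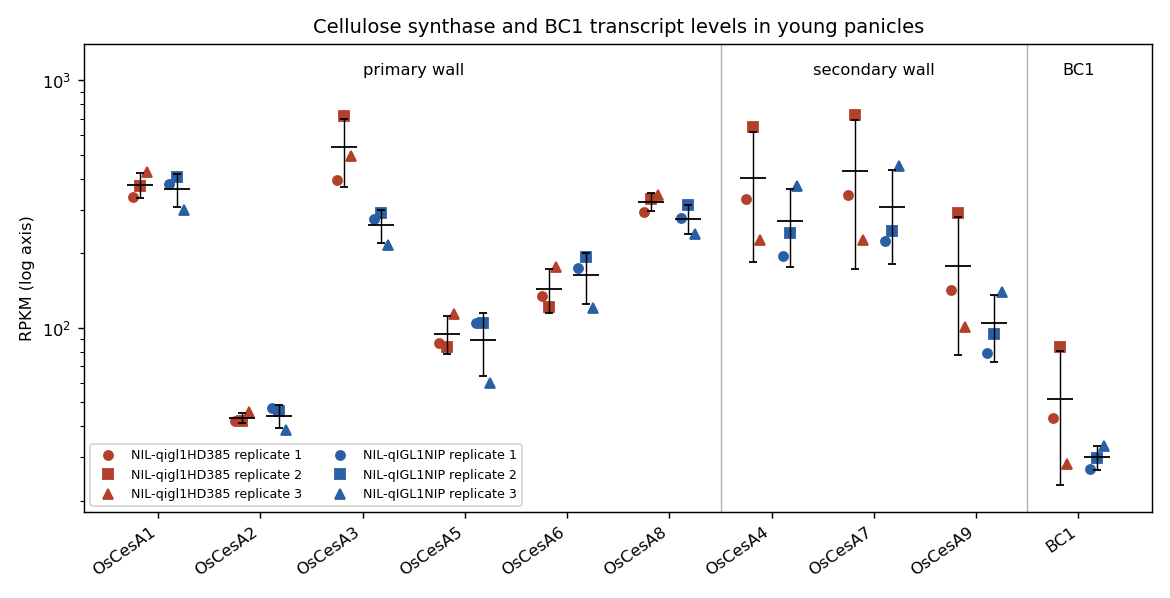
RPKM (log axis) of each gene in each library, NIL-qigl1HD385 (red) left of NIL-qIGL1NIP (blue), with the replicate number as symbol; black bars are the mean and SD (n = 3). OsCesA3 is the gene whose lines do not overlap, and NIL-qigl1HD385 replicate 2 lies highest for the secondary wall genes and BC1.

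Among the primary wall genes, OsCesA3 (LOC_Os07g24190, chromosome 7) had the highest level in NIL-qigl1HD385. It stood at 395, 716 and 494 RPKM in NIL-qigl1HD385 replicates 1, 2 and 3, against 274, 291 and 216 RPKM in NIL-qIGL1NIP. The lowest library of NIL-qigl1HD385 was thus above the highest of NIL-qIGL1NIP. The mean was 535 ± 164 RPKM in NIL-qigl1HD385, against 260.2 ± 39.2 RPKM in NIL-qIGL1NIP (SD, n = 3 each), and the log2 difference was 1.006 (SE 0.24, 95% interval 0.42 to 1.59). In limma the unadjusted p was 0.0051 and the adjusted p 0.139, so the difference did not pass. Replicate 2 of NIL-qigl1HD385 held 1.61 times the mean of the other 2 libraries of its line. Without that library the log2 difference was 0.77 (adjusted p = 0.219 in limma), and it stayed positive in all 16 alternative fits, from 0.65 to 1.20, with adjusted p from 0.119 to 0.333.

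The order of OsCesA3 and OsCesA1 differed between the lines. OsCesA1 (LOC_Os05g08370, chromosome 5) had 339, 374 and 425 RPKM in NIL-qigl1HD385, against 380.5, 408 and 299.5 RPKM in NIL-qIGL1NIP, overlapping ranges with a log2 difference of 0.07 (SE 0.16, adjusted p = 0.859 in limma). The ratio of OsCesA3 to OsCesA1 was 1.17, 1.91 and 1.16 in NIL-qigl1HD385, against 0.72, 0.712 and 0.721 in NIL-qIGL1NIP. OsCesA3 was the higher of the pair in 3 of 3 libraries of NIL-qigl1HD385 and in 0 of 3 of NIL-qIGL1NIP. Within NIL-qIGL1NIP this ratio hardly moved, although both genes were lowest in replicate 3. The pair was picked after its values were seen, so the ratio is given with no test.

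The other primary wall genes overlapped between the lines and showed differences under 0.25 on the log2 scale. OsCesA8 (LOC_Os07g10770, chromosome 7) had 292, 330.0 and 344 RPKM in NIL-qigl1HD385, against 276, 312 and 239 RPKM in NIL-qIGL1NIP. Its log2 difference was 0.23 (95% interval -0.11 to 0.56, adjusted p = 0.444 in limma). OsCesA6 (LOC_Os07g14850, chromosome 7) had 134, 121 and 177 RPKM in NIL-qigl1HD385, against 174, 194 and 120.5 RPKM in NIL-qIGL1NIP. With a log2 difference of -0.17 (95% interval -0.70 to 0.37, adjusted p = 0.739 in limma), it was 1 of the 2 genes with a negative value. OsCesA5 (LOC_Os03g62090, chromosome 3) had 87.2, 83.4 and 114 RPKM in NIL-qigl1HD385, against 104, 104 and 59.7 RPKM in NIL-qIGL1NIP. Here the log2 difference was 0.12 (95% interval -0.48 to 0.72, adjusted p = 0.845 in limma), and it was -0.15 without NIL-qIGL1NIP replicate 3 and -0.02 without NIL-qigl1HD385 replicate 3. OsCesA2 (LOC_Os03g59340, chromosome 3) was the lowest cellulose synthase, at 41.9, 42.1 and 45.7 RPKM in NIL-qigl1HD385, against 47.5, 46.3 and 38.7 RPKM in NIL-qIGL1NIP. It had the narrowest interval of the 10, -0.28 to 0.24 around a log2 difference of -0.02 (adjusted p = 0.93 in limma). For OsCesA2, a 2-fold difference in either direction lies outside that interval. The same holds for the intervals of OsCesA5, OsCesA6 and OsCesA8, and for that of OsCesA1 (-0.32 to 0.46).

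**Figure D2:**
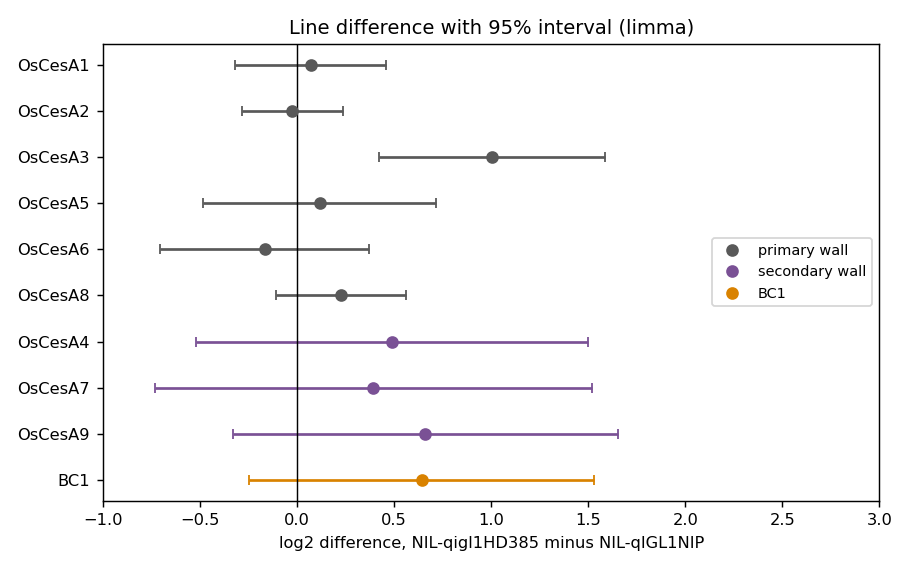
Log2 difference (NIL-qigl1HD385 minus NIL-qIGL1NIP) of each gene with its unadjusted 95% interval from limma. OsCesA3 lies at 1.006 with an interval from 0.42 to 1.59 (adjusted p = 0.139), and the 3 secondary wall genes and BC1 have the widest intervals.

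Summed over the 6 primary wall genes, the level was 1289, 1666 and 1599.5 RPKM in NIL-qigl1HD385, against 1257, 1355 and 973 RPKM in NIL-qIGL1NIP. The log2 difference of the sums was 0.35 (p = 0.2, exact two-sided permutation test over 20 arrangements, whose smallest possible p is 0.1). It was 0.21 without NIL-qIGL1NIP replicate 3 and 0.14 without that library and NIL-qigl1HD385 replicate 2. Without OsCesA3, the remaining 5 summed to 983 ± 109 RPKM in NIL-qigl1HD385, against 935 ± 159 RPKM in NIL-qIGL1NIP (SD, n = 3 each). OsCesA3 made up 30.6, 43.0 and 30.9% of the primary wall sum in NIL-qigl1HD385 and 21.8, 21.5 and 22.2% in NIL-qIGL1NIP. Its share varied by less than 1 percentage point among the NIL-qIGL1NIP libraries. Among the remaining 5 genes, OsCesA1 held a near-constant share of 37.9, 39.4 and 38.4% in NIL-qigl1HD385 and 38.7, 38.4 and 39.6% in NIL-qIGL1NIP. OsCesA6 held 15.0, 12.7 and 16.0% of the same sum in NIL-qigl1HD385 and 17.7, 18.2 and 15.9% in NIL-qIGL1NIP, which overlapped in 1 library of each line. OsCesA8 held 32.7, 34.7 and 31.1% in NIL-qigl1HD385 and 28.1, 29.3 and 31.6% in NIL-qIGL1NIP, also overlapping.

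**Figure D3:**
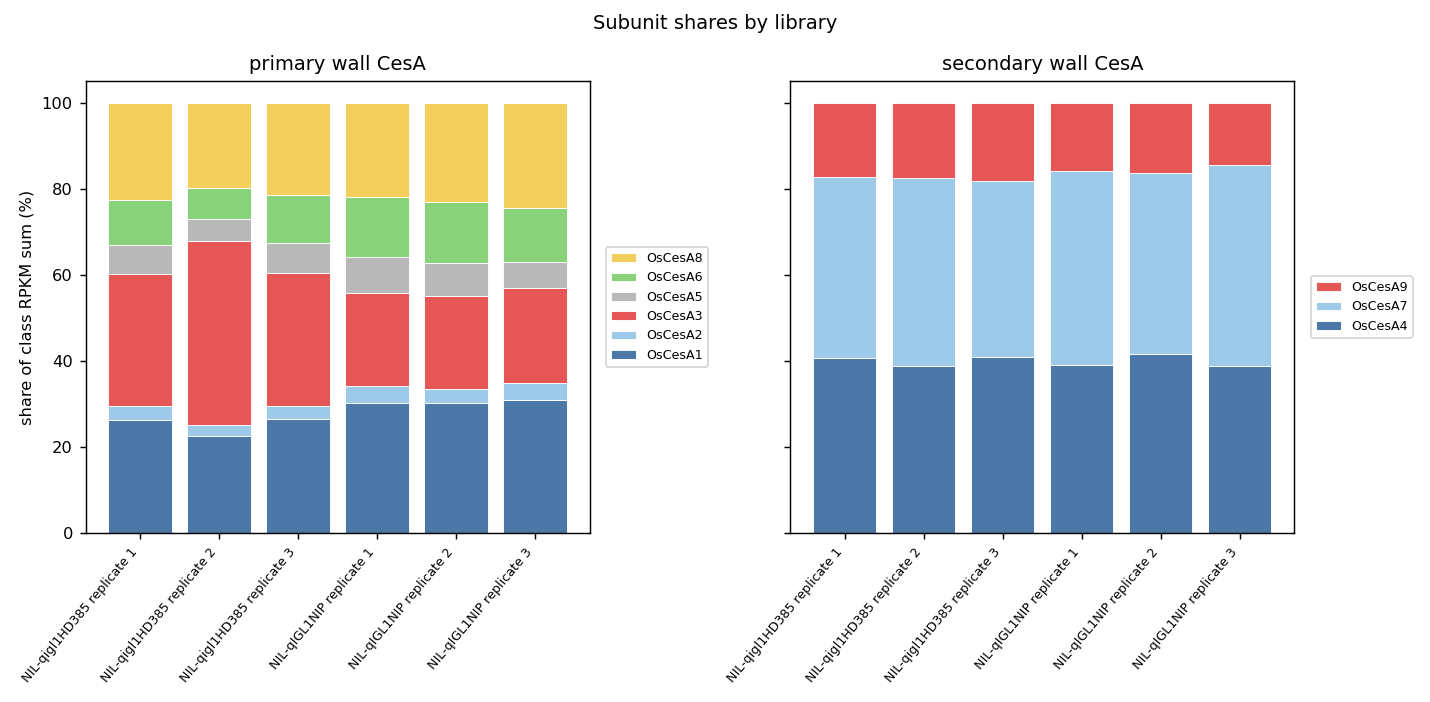
Share of each subunit in the summed RPKM of its class, in percent, by library; NIL-qigl1HD385 stands left of NIL-qIGL1NIP. OsCesA3 holds 30.6 to 43.0% of the primary wall sum in NIL-qigl1HD385 and 21.5 to 22.2% in NIL-qIGL1NIP, and the secondary wall shares differ little between libraries.

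The secondary wall genes had, on the log2 scale, a wider range among the libraries of each line than the difference between the line means. OsCesA4 (LOC_Os01g54620, chromosome 1) had 332, 645 and 227 RPKM in NIL-qigl1HD385 replicates 1, 2 and 3, and 194, 242 and 374 RPKM in NIL-qIGL1NIP. OsCesA7 (LOC_Os10g32980, chromosome 10) had 344, 721 and 227 RPKM in NIL-qigl1HD385, against 223, 245 and 452 RPKM in NIL-qIGL1NIP. OsCesA9 (LOC_Os09g25490, chromosome 9) had 142, 292 and 101 RPKM in NIL-qigl1HD385, against 79.2, 94.7 and 140.1 RPKM in NIL-qIGL1NIP. All 3 were highest in replicate 2 of NIL-qigl1HD385 and in replicate 3 of NIL-qIGL1NIP, and the lines overlapped for each. Log2 differences were 0.49 (95% interval -0.52 to 1.498), 0.39 (-0.73 to 1.52) and 0.66 (-0.33 to 1.65), with adjusted p of 0.587, 0.701 and 0.454 in limma. These intervals hold both 0 and a 2-fold difference, so neither is excluded. The size of the differences depended on single libraries. Without NIL-qigl1HD385 replicate 2 they were 0.08, -0.06 and 0.23, and leaving out replicate 3 of that line gave 0.83, 0.77 and 1.00. Among the NIL-qIGL1NIP libraries, leaving out replicate 3 gave 0.75, 0.71 and 0.89, and leaving out replicate 1 gave 0.28, 0.20 and 0.48.

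Within the lines, replicate 2 of NIL-qigl1HD385 held 2.31, 2.53 and 2.41 times the mean of the other 2 libraries for OsCesA4, OsCesA7 and OsCesA9. Replicate 3 of NIL-qIGL1NIP held 1.72, 1.93 and 1.61 times the mean of its line's other 2. The within-line SD on the log2 scale was 0.64, 0.71 and 0.63 for these genes, larger than for 96.4, 97.3 and 96.2% of the 5459 loci with a mean of at least 20 RPKM, whose median SD was 0.17. Among the primary wall genes, OsCesA3, OsCesA5 and OsCesA6 had SDs of 0.35, 0.37 and 0.32, larger than for 85.1, 87.2 and 83.0% of these loci. OsCesA1, OsCesA2 and OsCesA8 had SDs of 0.20, 0.12 and 0.16, larger than for 61.0, 31.6 and 47.9%. The primary wall genes moved the other way in NIL-qIGL1NIP replicate 3, where all 6 had 0.572 to 0.826 times the mean of the other 2 libraries. In NIL-qigl1HD385 replicate 2, OsCesA3 was the one primary wall gene far above its line, and the other 5 had 0.779 to 1.04 times the mean of the other 2 libraries. The median-ratio factor over all loci was 0.96 for NIL-qigl1HD385 replicate 2 and 0.933 for NIL-qIGL1NIP replicate 3, and its part in these values was not tested.

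**Figure D4:**
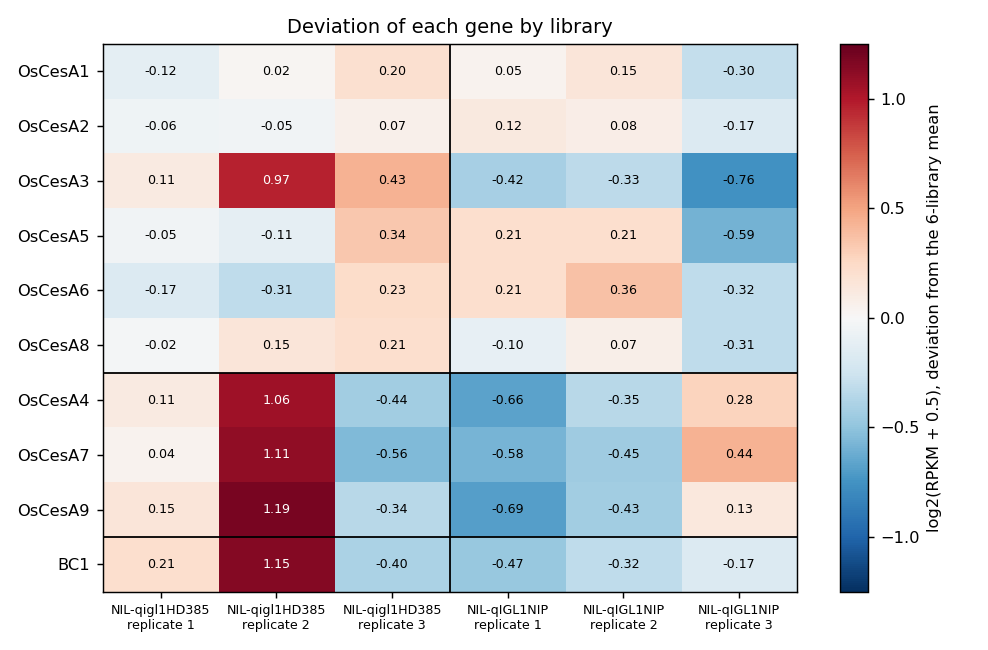
Deviation of log2(RPKM + 0.5) from the mean of the 6 libraries, by gene (down the page) and library, with NIL-qigl1HD385 left of NIL-qIGL1NIP. In NIL-qIGL1NIP replicate 3 the primary wall genes lie below 0 and the secondary wall genes above 0. BC1 lies below 0 in every library of that line and is highest there in replicate 3.

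Although their levels varied, the proportions of the secondary wall genes stayed nearly fixed. OsCesA4 made up 40.6, 38.9 and 40.9% of their sum in NIL-qigl1HD385 and 39.1, 41.6 and 38.7% in NIL-qIGL1NIP. OsCesA7 made up 42.0, 43.5 and 40.9% in NIL-qigl1HD385 and 44.96, 42.2 and 46.8% in NIL-qIGL1NIP. OsCesA9 was the least abundant of the 3, at 17.4, 17.6 and 18.1% in NIL-qigl1HD385 and 15.9, 16.3 and 14.5% in NIL-qIGL1NIP. The share of OsCesA9 did not overlap between the lines, with means of 17.7 ± 0.39% in NIL-qigl1HD385 against 15.6 ± 0.95% in NIL-qIGL1NIP (SD, n = 3 each). This separation was picked after the values were seen: 5 of the 9 shares, which depend on each other within a class, did not overlap. They were those of OsCesA1, OsCesA2, OsCesA3, OsCesA6 and OsCesA9. With OsCesA3 left out of the primary wall sum, the shares of OsCesA1, OsCesA2 and OsCesA6 overlapped between the lines. For levels rather than shares, 26.5% of all tested loci did not overlap. The sum of the secondary wall genes was 818, 1658 and 555 RPKM in NIL-qigl1HD385, against 497, 582 and 966 RPKM in NIL-qIGL1NIP. Its log2 difference of 0.48 was smaller than the range within either line (p = 0.6, exact two-sided permutation test). Leaving out NIL-qigl1HD385 replicate 2 gave 0.04, and leaving out replicate 3 of that line gave 0.83. Among the NIL-qIGL1NIP libraries, the difference was 0.76 with replicate 3 left out and 0.28 with replicate 1 left out.

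Relative to the primary wall sum, the secondary wall sum was 0.634, 0.995 and 0.347 in NIL-qigl1HD385 and 0.395, 0.429 and 0.993 in NIL-qIGL1NIP. Each line thus held 1 library in which both classes were about equally abundant. The log2 difference of this ratio was 0.13 (p = 0.9, exact two-sided permutation test), and without NIL-qigl1HD385 replicate 2 it was -0.24. It was also negative without NIL-qIGL1NIP replicate 1 (-0.12) or replicate 2 (-0.06), so its direction is not settled.

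BC1 (LOC_Os03g30250, chromosome 3), the COBRA-like gene, had 43.4, 83.7 and 28.3 RPKM in NIL-qigl1HD385, against 26.8, 29.9 and 33.3 RPKM in NIL-qIGL1NIP. It was spread widely in NIL-qigl1HD385 and narrowly in NIL-qIGL1NIP, and the lines overlapped. It averaged 51.8 ± 28.6 RPKM in NIL-qigl1HD385, against 30.0 ± 3.22 RPKM in NIL-qIGL1NIP (SD, n = 3 each), with a log2 difference of 0.64 (95% interval -0.24 to 1.53, adjusted p = 0.422 in limma). Without NIL-qigl1HD385 replicate 2 it was 0.23, and without NIL-qigl1HD385 replicate 3 it was 1.00 (adjusted p = 0.283 in limma). Per unit of the secondary wall sum, BC1 was 0.0531, 0.0505 and 0.051 in NIL-qigl1HD385 and 0.054, 0.0514 and 0.0344 in NIL-qIGL1NIP. In 5 of the 6 libraries this ratio kept between 0.0505 and 0.054, and NIL-qIGL1NIP replicate 3 lay below them. There the secondary wall genes stood 1.61 to 1.93 times above the other 2 libraries of the line, and BC1 1.17 times. The log2 difference of the ratio was 0.17 (p = 0.9, exact two-sided permutation test) and -0.03 without that library.

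Levels of OsCesA4, OsCesA7, OsCesA9 and BC1 were correlated over the 6 libraries. Over the 6 pairs among them, Pearson's r of the log2 values was 0.896 to 0.9885 and Spearman's rho 0.886 to 1.00. Exact two-sided permutation p-values were 0.00139 to 0.0236 for r and 0.00278 to 0.0333 for rho. After Benjamini-Hochberg adjustment over all 45 pairs of the 10 genes they were 0.0625 to 0.117 and 0.125 to 0.136, so none passed. OsCesA4 and OsCesA7 already had the smallest p that 6 libraries allow, 0.00139 for r and 0.00278 for rho. These adjusted to 0.0625 and 0.125, so failing to pass does not show that the genes vary independently. Without the 2 libraries farthest from the median of the first gene of a pair, r was 0.688 to 0.998. High r was not confined to these pairs. Among the primary wall genes it was 0.94 for OsCesA2 and OsCesA5, 0.93 for OsCesA1 and OsCesA5 and 0.90 for OsCesA2 and OsCesA6. Other primary wall pairs had a lower r, down to -0.19 for OsCesA3 and OsCesA6. Between the classes, OsCesA6 and OsCesA7 had an r of -0.89. The same libraries carry all these values, and libraries of both lines were pooled.

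As a description of how common such a profile was, all 23181 tested loci were ordered by Pearson's r with the mean log2 level of the 3 secondary wall genes over the 6 libraries. OsCesA4, OsCesA9 and OsCesA7, which form that mean, came at ranks 1, 9 and 10. BC1, which does not, came at rank 154 (r = 0.94). In all, 307 loci had an r of at least 0.9 and 104 of at least 0.95. The 2 most like loci outside the 10 genes were LOC_Os09g20980 (r = 0.998) and LOC_Os06g07932 (r = 0.996), neither of which the files pair with a name. LOC_Os09g20980 had 28.5, 44.7 and 23.6 RPKM in NIL-qigl1HD385, against 21.7, 23.0 and 30.9 RPKM in NIL-qIGL1NIP, a narrower fold range than that of the secondary wall genes. OsCesA6 came lowest of the 10 genes, at rank 20985 of 23181 (r = -0.86), which is not the end of the order. OsCesA3 came at rank 3209 (r = 0.53), the highest of the primary wall genes.

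For the mean log2 level of the 6 primary wall genes, the order was looser. OsCesA8 (r = 0.95) came at rank 240, OsCesA1 (r = 0.94) at rank 348, OsCesA5 (r = 0.89) at rank 1076, OsCesA2 (r = 0.75) at rank 3668, OsCesA3 (r = 0.68) at rank 4777 and OsCesA6 (r = 0.58) at rank 6578, although all are part of that mean. The most like loci outside the 10 genes were LOC_Os02g31150 and LOC_Os04g12830 (r = 0.99 each), also without a name in the files.

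By mean level over the 6 libraries, the genes followed the order OsCesA3 (398 RPKM), OsCesA1 (371 RPKM), OsCesA7 (369 RPKM), OsCesA4 (336 RPKM), OsCesA8 (299 RPKM), OsCesA6 (153 RPKM), OsCesA9 (141 RPKM), OsCesA5 (92.1 RPKM), OsCesA2 (43.7 RPKM) and BC1 (40.9 RPKM). OsCesA3 was the 110th most abundant of the tested loci and BC1 the 2718th. Few neighbours in this order were separated: OsCesA8 exceeded OsCesA6, and OsCesA5 exceeded OsCesA2, in 6 of 6 libraries. OsCesA7 exceeded OsCesA4 in 5 of 6, by at most 1.21 times, and the 2 were equal within 0.1% in the sixth. The other neighbouring pairs changed places in 2 or 3 of the 6 libraries. The order of the means differed between the lines, with OsCesA3 at rank 1 in NIL-qigl1HD385 and at rank 5 in NIL-qIGL1NIP. In NIL-qigl1HD385 the highest means were those of OsCesA3 (535 RPKM), OsCesA7 (431 RPKM), OsCesA4 (401 RPKM), OsCesA1 (379 RPKM) and OsCesA8 (322 RPKM). In NIL-qIGL1NIP they were those of OsCesA1 (363 RPKM), OsCesA7 (307 RPKM), OsCesA8 (276 RPKM), OsCesA4 (270.1 RPKM) and OsCesA3 (260.2 RPKM).

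The genes lie on 6 chromosomes, as read from the locus identifiers, and for near-isogenic lines the loci around them are of interest. Of the 10 tested loci before and the 10 after each gene, 200 in all, 1 passed an adjusted p under 0.05 in limma, a share near the 0.733% of all tested loci. That locus, LOC_Os03g59380, lies near OsCesA2; it was named because it was the one call. The 20 loci around OsCesA3 had a median log2 difference of 0.13, from -0.54 to 0.52, all smaller than the 1.006 of OsCesA3.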

How the data were processed

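The authors deposited 1 RPKM value per locus and library; the submitters' processing notes list edgeR 3.12.1, featureCounts, Subread 1.5.1 and Trimmomatic 0.36 with no roles. Aligner, build and strand use in counting: not given in the sources used here; libraries were stranded and read in pairs, per the labels' protocols. Gene names come from the definition of the set. In RefSeq's gene table (assembly ASM3414082v1), 0 identifiers matched, but all 10 names occur on the chromosome of their locus (BC1 also names a second entry). Pathway and tissue marker lists could therefore not be matched and were not used.

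Totals, model lengths and reads were recovered with Python 3.11.15 as whole multiples (100% of values above 0, with a tolerance of 0.003 reads plus 2e-08 times the reads); counting error is taken from these reads. The first version gave totals at fractions of the true ones and was changed: the scale is the one at which reads do not exceed the total. On simulated data all 6 totals and the reads of 99.1% of 13881 loci with at least 20 reads came back.

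Log2(RPKM + 0.5) was tested with limma 3.58.1 in R 4.3.3 (variance trend) over the 23181 loci with a mean of at least 0.5 RPKM. On data simulated for this comparison (23181 loci, 200 changed) it recovered 90% of 2-fold and 100% of 4-fold changes, with 12 false calls among 202. Loci were given 1 common spread, smaller than that of OsCesA1, OsCesA3, OsCesA5 and OsCesA6. It was far smaller than that of the secondary wall genes and BC1. These recovery rates therefore do not apply to any of these genes. All 10 members are named, with the 2 loci most like each class. The rule for members uses no expression value, but members and lists were chosen with earlier results of these data known.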

Additional observations from a re-analysis of the deposited data

How the results depend on the processing

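None of the 10 genes was called under any of the 16 alternative limma fits, which include both pseudocounts, both filters, median-ratio scaling, quantile normalization, an untrended variance and limma voom on recovered reads. The count of all called loci, 170, was 94 with a mean of at least 2 RPKM, 46 with the replicate number as a block (replicate block), 84 to 112 with 1 library left out and 93 without NIL-qigl1HD385 replicate 2 and NIL-qIGL1NIP replicate 3 together, a fit chosen after seeing the data; the last 2 kinds use fewer samples. Voom called 127. Differences of 4 genes turned sign: OsCesA2 was 0.012 under quantile normalization and -0.12 to 0.030 with 1 library left out, OsCesA1 -0.062 to 0.16, OsCesA5 -0.15 to 0.25 and OsCesA7 -0.061 to 0.77. Without both libraries, OsCesA1 was at -0.056 and OsCesA5 at -0.065. With 1 library left out, the ratio of secondary to primary wall sums gave -0.24 to 0.55 and that of BC1 to the secondary wall sum -0.032 to 0.29; the second was -0.018 without both libraries. With 1 library left out, the secondary wall sum gave 0.04 to 0.83 and the primary wall sum 0.21 to 0.46. The cause was not tested.

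Nothing in the labels pairs libraries by number. Same-numbered deviations correlated across loci at -0.28, -0.246 and -0.414, and for 0 of 6 libraries was the same-numbered one the best match. With the replicate block, OsCesA3 had an adjusted p of 0.253 in limma, and the sums and ratios gave p from 0.25 to 1 (exact sign-flip test, 3 pairs, smallest possible p 0.25). With 3 libraries per line, exact permutation tests of the line difference cannot reach 0.05. How depth limits these intervals was not tested.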
